A study of Mus musculus with 3 samples.

Results

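The 9 genes described here are 5 secreted matricellular proteins of the CCN family (Ccn1, Ccn2, Ccn3, Ccn4 and Ccn5), 2 further target genes of the transcriptional coactivator YAP (Ankrd1 and Amotl2), and the genes of the coactivators YAP and TAZ themselves (Yap1 and Wwtr1). They were chosen by name, as a gene family with the regulators and targets around it, and are 9 of the 32285 genes counted. Unique molecular identifiers (UMIs, each standing for 1 captured RNA molecule) were read for them in single cells of mouse hind paws in K/BxN serum transfer arthritis. In this model a mouse receives, into the peritoneum, 200 µl of serum of arthritic K/BxN donors, whose autoantibodies start an inflammation of the joints. The stromal day 5 library held sorted CD45- cells from paws 5 days after serum, and the stromal day 0 library held CD45- cells labelled steady state. Another library, myeloid day 9, held CD45+CD11b+Ly6G- leukocytes sorted from paws 9 days after serum. The labels give no strain, sex, age or number of mice per library. Paws were stripped of skin, muscles and tendons and then digested with collagenase IV and DNase, and the cells described are those that came through digestion and sorting.

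Each group is 1 library, so nothing was tested, and effects of the day, the library, its mice and its digestion cannot be told apart. The interval printed with a value covers 95% of counting error only. Filtering left 10053 day 5 cells (median depth 9139 UMIs) and 6895 day 0 cells (median depth 9681 UMIs), and 25 barcodes occurred in both libraries. Levels are given as CPM: the UMIs of a gene in all cells of a class, pooled within a library, per 1000000 UMIs of those cells. The cells were clustered together with the 9 genes left out of the clustering, and classes were taken from markers. Fibroblasts (Col1a1, Dcn, Pdgfra) were 7602 cells at day 5 and 5181 at day 0. Among them stood a Prg4 class with lining markers (Prg4, Clic5, Htra4; 166 and 151 cells at days 5 and 0), a Pi16 class with progenitor markers (Pi16, Dpp4, Sema3c; 691 and 1004 cells), a Smoc2 class (Smoc2, Hsd11b1, Bmp5; 273 and 93 cells) and an inflammatory Saa3 class (Saa3, Ptx3, Lcn2; 1112 and 16 cells). Outside the fibroblasts were an Fmod class (982 and 833 cells), an osteoblast-like Ibsp class (Ibsp, Bglap, Alpl; 564 and 532 cells) and blood endothelial-like cells (Pecam1, Cdh5; 57 and 90 cells). The Fmod class joined a pair of clusters. Cluster 6, tenocyte-like with Fmod, Thbs4 and Tnmd among its 10 leading genes, held 794 and 254 of its cells. Cluster 11, led by Cytl1, Clu and Slurp1, held 188 and 579, and although all 8 tenocyte markers were detected in it, only Chad was among its 10 leading genes, so the class is called by its gene alone. Ratios between days are given only for classes with at least 50 cells in each library, which leaves out the Saa3 class. Clusters 13, 17 and 19, whose leading genes included more leukocyte, haemoglobin or cycling genes than fibroblast markers, were not named and made up 8.02% of day 5 and 3.29% of day 0 cells.

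CCN proteins are secreted into the extracellular matrix, where they bind integrins, syndecans and growth factors and so tune adhesion, matrix production and repair. Ccn1 and Ccn2 are textbook targets of YAP and TAZ, which enter the nucleus when cells are stretched, spread or released from Hippo kinase signalling and bind DNA through TEAD factors. Ankrd1 and Amotl2 are targets of the same factors, and the Amotl2 protein in turn holds YAP in the cytoplasm.

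Windows of 300 bases around the start sites, from 250 bases before to 50 bases after, were taken from RefSeq (build GRCm38.p6) and could be matched to 5 of the 9 genes. The core letters bound by TEAD factors, GGAATG on the gene's strand or CATTCC for the opposite strand, occurred in all 5 of these, Ccn1, Ankrd1, Amotl2, Yap1 and Wwtr1. They were held by 14.7% of all 32841 RefSeq windows of this length. The windows of the 3 target genes are printed because they show where these letters lie, and the letters are in capitals.
Ccn1, chr3:145649936-145650235, minus strand: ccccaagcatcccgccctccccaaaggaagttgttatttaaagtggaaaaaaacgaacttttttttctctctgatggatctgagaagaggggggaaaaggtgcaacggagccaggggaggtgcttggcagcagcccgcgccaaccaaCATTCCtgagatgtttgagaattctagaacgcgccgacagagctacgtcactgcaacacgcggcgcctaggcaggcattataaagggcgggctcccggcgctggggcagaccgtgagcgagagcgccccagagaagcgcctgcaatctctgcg
Ankrd1, chr19:36119795-36120094, minus strand: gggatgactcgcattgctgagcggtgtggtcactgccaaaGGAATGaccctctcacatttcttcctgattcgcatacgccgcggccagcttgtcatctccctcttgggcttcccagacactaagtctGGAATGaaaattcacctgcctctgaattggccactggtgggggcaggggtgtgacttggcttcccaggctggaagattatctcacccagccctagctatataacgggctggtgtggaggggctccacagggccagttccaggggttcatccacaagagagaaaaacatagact
Amotl2, chr9:102717554-102717853, plus strand: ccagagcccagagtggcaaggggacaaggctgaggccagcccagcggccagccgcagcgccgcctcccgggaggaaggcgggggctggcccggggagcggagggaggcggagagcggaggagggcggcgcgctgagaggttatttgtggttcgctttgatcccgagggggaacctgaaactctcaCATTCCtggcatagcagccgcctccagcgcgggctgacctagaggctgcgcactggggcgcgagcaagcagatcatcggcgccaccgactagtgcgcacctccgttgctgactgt
The Ccn1 match began 103 bases before the start site and the Amotl2 match 65 bases before it, both on the opposite strand. The Amotl2 and Ankrd1 windows lie within the gene spans given below, so their RefSeq start sites are inside those spans. Ankrd1 held a pair of matches, beginning 210 and 123 bases before the start site, on its own strand. The matches of the coactivator genes began 141 bases before the start site in Yap1. In Wwtr1 they began 170 or 136 bases before it, depending on which of its start sites was used. The window of Ccn6, a family gene outside the 9, held none. Letters for AP-1 (TGACTCA or TGAGTCA), the factor of Fos and Jun proteins, occurred in 5.20% of all windows, and those of the CArG box, read by serum response factor, in 1.63%. Neither was found in the windows of these 5 genes. A match describes letters only and is no measure of binding.

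**Figure D1:**
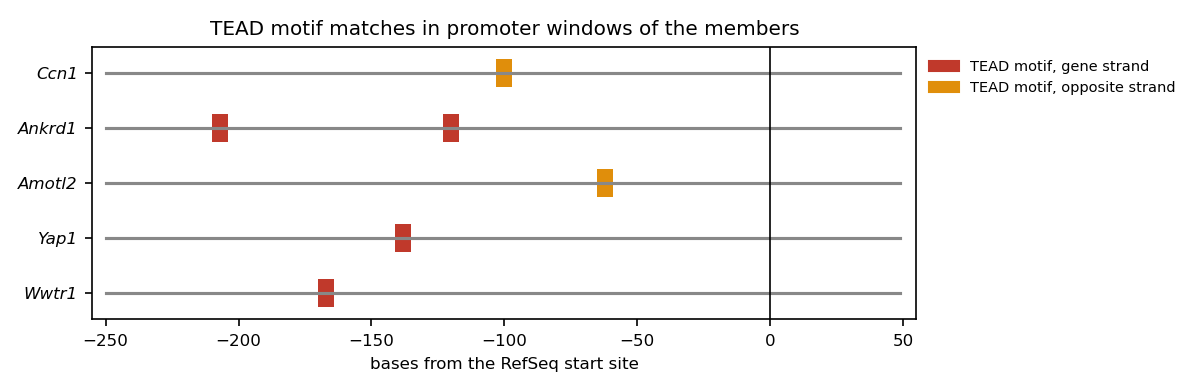
Position of TEAD letters in the RefSeq promoter windows of 5 genes. The horizontal axis gives bases from the start site, and the colour gives the strand of the match. Each of the 5 genes has at least 1 match, and all matches lie before the start site.

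Ccn1 (ENSMUSG00000028195, mm10 chr3:145646976-145649981, minus strand), an integrin ligand and immediate early gene, was spread over all classes. Its level at day 5 was 557 CPM (537 to 578) in Ibsp cells, 532 (504 to 561) in Prg4 cells, 477 (466 to 487) in Saa3 cells, 396 (383 to 410) in Fmod cells, 368 (327 to 413) in endothelial cells, 295 (275 to 318) in Smoc2 cells and 113 (105 to 121) in Pi16 cells. The intervals of the Ibsp and Prg4 classes overlapped, as did those of the Fmod and endothelial classes. At day 0 Ccn1 stood at 502 CPM in Ibsp cells, 478 in Prg4 cells, 432 in Fmod cells, 288 in endothelial cells, 202 in Smoc2 cells and 180.2 in Pi16 cells. The order of the classes listed for both days was thus the same. Fibroblasts outside the Prg4, Pi16, Smoc2 and Saa3 classes had 185 CPM (181 to 189) at day 5, below Smoc2 cells. At day 0 they had 223 CPM (218 to 228), an interval that overlapped that of Smoc2 cells (173 to 235).

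Between the days Ccn1 moved in both directions. It was lower at day 5 in the Pi16 class, with a ratio of day 5 over day 0 of 0.626 (0.575 to 0.682), and higher in the Smoc2 class at 1.46 (1.23 to 1.74). The Ibsp and Prg4 classes both had a ratio of 1.11, and the Fmod class had 0.918 (0.875 to 0.962). When Pi16 cells were instead chosen by Pi16 UMIs alone, the ratio turned to 1.14. Of the cells so chosen 31.3% at day 5 and 49.6% at day 0 belonged to the Pi16 class. The summed level of 23 immediate early and digestion stress genes was 16846.5 CPM at day 5 and 14630.4 at day 0 in Pi16 cells, and 30724 and 23924 in Smoc2 cells. Its part in the Ccn1 values was not tested.

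Ccn2 (ENSMUSG00000019997, chr10:24595442-24598683, plus strand) encodes connective tissue growth factor, a promoter of matrix production. Its level was highest in the lining-like Prg4 class, with 1594 CPM (1546 to 1644) at day 5 and 1732 (1683 to 1781) at day 0. In Prg4 cells 88.0% at day 5 and 92.1% at day 0 had a Ccn2 UMI, against 1.38% of the day 9 myeloid cells. After thinning to 2000 UMIs a cell, the shares of Prg4 cells were 74.2% (66.8 to 80.8) at day 5 and 69.5% (61.5 to 76.8) at day 0, with overlapping intervals, so no order of the days is read from them. The Fmod class followed with 473 CPM (459 to 488) at day 5 and 833 (814 to 853) at day 0, and the Ibsp class with 459 (440 to 478) and 673 (650.05 to 697). In endothelial cells Ccn2 had 197 CPM at day 5 and 481 at day 0, in Smoc2 cells 169.8 and 381, and in Saa3 cells 197 at day 5. The lowest level was in the Pi16 class, with 30.1 CPM (26.2 to 34.6) at day 5 and 50.1 (45.9 to 54.6) at day 0.

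The day 5 level of Ccn2 lay below the day 0 level in every class compared, with little difference in the Prg4 class. The ratio was 0.921 (0.883 to 0.960) in Prg4 cells, 0.681 (0.645 to 0.719) in Ibsp cells, 0.601 (0.509 to 0.708) in Pi16 cells and 0.446 (0.385 to 0.518) in Smoc2 cells. Chosen by Pi16 UMIs alone, Pi16 cells had a ratio of 1.13, and thinned to 2000 UMIs they had 0.749. In the Fmod class the ratio was 0.568 (0.546 to 0.590), but its clusters differed. Cluster 6, which held most Fmod cells at day 5, had 325 CPM at day 5 and 734 at day 0. Cluster 11, which held most of them at day 0, had 1021 CPM at day 5 and 871 at day 0, a ratio of 1.17 (1.11 to 1.24). The lower class level thus held in the first of these clusters and not in the second, and different clusters made up most of the class on each day. In endothelial cells the ratio was 0.411 (0.337 to 0.499), or 0.673 after thinning to 2000 UMIs, with 754 CPM of summed leukocyte markers at day 5 and 14.5 at day 0, whose part was not tested.

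Ccn3 (ENSMUSG00000037362, chr15:54745702-54754039, plus strand), also named Nov, is a CCN protein that opposes Ccn2 in several tissues and binds Notch1. Smoc2 cells had the highest level, with 519 CPM (491 to 548) at day 5 and 1236 (1162 to 1314) at day 0. Pi16 cells came next, with 293 (280.4 to 306) at day 5 and 539.9 (526 to 554) at day 0. The other classes had 69.9 CPM at day 5 and 85.5 at day 0 in Prg4 cells, 49.0 at day 5 in Saa3 cells, 40.4 and 124 in Fmod cells, 25.6 and 23.2 in endothelial cells and 9.16 and 19.9 in Ibsp cells. Of the named classes, Pi16 was thus second for Ccn3 and lowest for Ccn2, and Ibsp was lowest for Ccn3. Outside these classes the cluster led by S100g carried 257 CPM at day 5 and 576 at day 0.

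Ccn3 was lower at day 5 in each class with enough counts. Its ratio was 0.420 (0.387 to 0.456) in Smoc2 cells, 0.543 (0.516 to 0.572) in Pi16 cells, 0.461 (0.317 to 0.663) in Ibsp cells and 0.817 (0.670 to 0.996) in Prg4 cells. In the Prg4 class it turned to 1.48 with cells thinned to an equal depth of 2000 UMIs, and it was 0.424 in cells chosen by Prg4 UMIs alone. Of the cells so chosen only 9.88% at day 5 and 14.3% at day 0 belonged to the Prg4 class. The Fmod class had a ratio of 0.326 (0.288 to 0.369), though within cluster 6 the ratio was 0.760 (0.572 to 1.02) and within cluster 11 it was 0.647 (0.550 to 0.756). The share of cells with the transcript was lower at day 5 in the Pi16, Smoc2 and Fmod classes and not in the Prg4 class. After thinning to 2000 UMIs, 37.6% (33.9 to 41.3) of Pi16 cells at day 5 and 54.3% (51.1 to 57.4) at day 0 had a Ccn3 UMI, from 75.3% and 89.4% before thinning. In Smoc2 cells the thinned shares were 42.0% (36.0 to 48.2) at day 5 and 63.7% (53.0 to 73.6) at day 0, from 64.1% and 89.2%. Prg4 cells had thinned shares of 16.0% (10.7 to 22.5) at day 5 and 12.6% (7.75 to 18.95) at day 0, and Fmod cells 6.98% (5.46 to 8.77) and 15.6% (13.2 to 18.3). Ibsp cells, the class of lowest level, had thinned shares of 1.61% (0.739 to 3.03) at day 5 and 2.26% (1.18 to 3.92) at day 0, with overlapping intervals as in the Prg4 class. Thinning left out 4 day 5 and 9 day 0 cells of the Pi16 class and 4 and 2 cells of the Smoc2 class.

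Ccn4 (ENSMUSG00000005124, chr15:66891320-66923201, plus strand), known as Wisp1, is a WNT-induced CCN protein of bone-forming cells, and most of its UMIs here outside clusters 17 and 19 came from the osteoblast-like Ibsp class. Ibsp cells had 109 CPM (99.9 to 118) at day 5 and 77.5 (69.8 to 85.9) at day 0. The Fmod class had 10.3 CPM (8.24 to 12.6) at day 5 and 15.9 (13.3 to 18.8) at day 0, and no fibroblast class exceeded 6.22 CPM on either day. The ratio in Ibsp cells was 1.40 (1.23 to 1.61), short of 1.5-fold, and 1.57 when cells with UMIs of the cartilage genes Col2a1 or Acan were left out, a split chosen after seeing the data. In the Fmod class the ratio was 0.645 (0.488 to 0.850), but 1.37 in cluster 6 alone and 1.48 in cells chosen by Fmod UMIs, so its direction there depended on how the cells were grouped. At day 5 the unnamed cycling cluster 19 carried 77.8 CPM and the unnamed cluster 17 carried 41.5, with 11 and 3 cells of these clusters at day 0.

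Ccn5 (ENSMUSG00000027656, chr2:163820861-163833146, plus strand), known as Wisp2, lacks the C-terminal domain of the other CCN proteins and marks many connective tissue fibroblasts. At day 5 it stood at 692 CPM (679.9 to 705) in Saa3 cells, 493 (467 to 521) in Prg4 cells, 373 (349.7 to 398) in Smoc2 cells, 272 (261 to 283) in Fmod cells, 239.8 (228 to 252) in Pi16 cells, 139 (129 to 149) in Ibsp cells and 24.4 in endothelial cells. No pair of neighbours in this order had overlapping intervals. At day 0 it was 485 CPM in Prg4 cells, 320.4 in Fmod cells, 263 in Ibsp cells, 165 in Pi16 cells, 107 in Smoc2 cells and 5.79 in endothelial cells.

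Among members measured in a class, the widest difference between the days was that of Ccn5 in Smoc2 cells, which was higher at day 5. The Ccn5 ratio was 3.48 (2.80 to 4.38), from 930 UMIs at day 5 and 89 at day 0. Cells chosen by Smoc2 UMIs alone gave the opposite direction, with a ratio of 0.700, and 46.8% of those cells at day 5 and 26.9% at day 0 belonged to the Smoc2 class. The summed markers of the Saa3 class in Smoc2 cells were 419 CPM at day 5 and 49.4 at day 0, and their part was not tested. Pi16 cells also had more Ccn5 at day 5, with a ratio of 1.46 (1.36 to 1.56), and Ibsp cells had less, at 0.528 (0.481 to 0.580). The Prg4 class, at 1.02 (0.941 to 1.10), could not be told apart from no difference within counting error. Ccn6, the remaining family gene, had 23 UMIs among all day 5 cells and 13 among all day 0 cells, too few to describe by class.

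**Figure D2:**
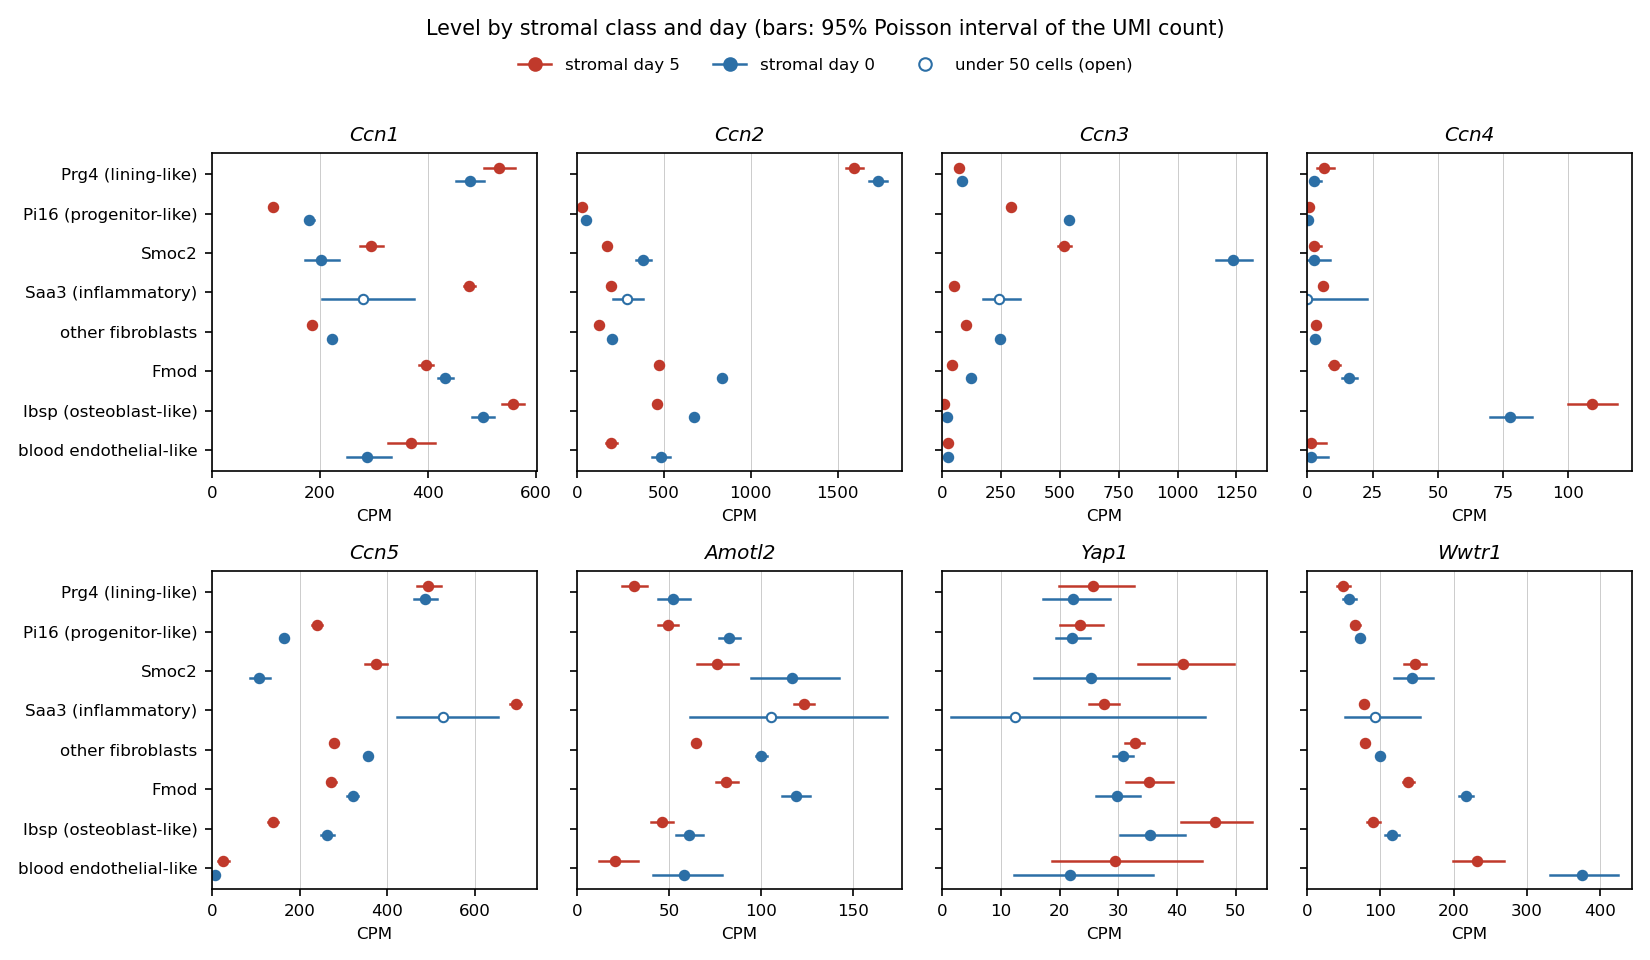
Level of 8 of the 9 genes by stromal class, in CPM on a linear axis, for stromal day 5 (red, upper point) and stromal day 0 (blue, lower point). Bars are 95% Poisson intervals of the count, and open points mark a class with fewer than 50 cells in a library. Ccn2 peaks in Prg4 cells at 1594 and 1732 CPM, Ccn3 in Smoc2 cells at 519 and 1236, and Ccn4 in Ibsp cells at 109 and 77.5.

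Ankrd1 (ENSMUSG00000024803, chr19:36111961-36120099, minus strand), a muscle ankyrin repeat protein much used as a YAP target in cultured cells, was close to absent from the paw stroma. All day 5 cells together held 82 Ankrd1 UMIs and all day 0 cells 41. Of the day 5 UMIs 43 came from 1 cell of cluster 19, and 16 came from 23 skeletal muscle-like cells, which had 109 CPM (62.4 to 177) at day 5 and 95.7 (45.9 to 176) at day 0. Fibroblasts held 2 UMIs in 7602 cells at day 5 and 4 in 5181 cells at day 0. The Fmod class held 13 UMIs at day 5 and 27 at day 0, of which 11 and 21 lay in cluster 6. Ankrd1 therefore had too few counts for a ratio in any class.

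Amotl2 (ENSMUSG00000032531, chr9:102716672-102733418, plus strand), an angiomotin of cell junctions, was present in every class. At day 5 the Saa3 class had 123 CPM (118 to 129), the Fmod class 81.3 (75.4 to 87.5), the Smoc2 class 75.9 (65.4 to 87.5), the Pi16 class 49.4 (44.2 to 54.9), the Ibsp class 46.0 (40.2 to 52.3), the Prg4 class 30.7 (24.3 to 38.2) and endothelial cells 20.5 (11.7 to 33.3). Only the Saa3 class stood clear of its neighbour in this order, together with the step between the Smoc2 and Pi16 classes and that between the Ibsp and Prg4 classes. At day 0 the Fmod class had 119 CPM, the Smoc2 class 117, the Pi16 class 82.8, the Ibsp class 60.9, endothelial cells 57.9 and the Prg4 class 52.1. Amotl2 was lower at day 5 in each of these. The ratio ranged from 0.354 (0.185 to 0.647) in endothelial cells, with 16 UMIs at day 5 and 40 at day 0 and a ratio of 0.210 after thinning, to 0.755 (0.632 to 0.902) in Ibsp cells. In between, it was 0.589 in Prg4 cells, 0.596 in Pi16 cells, 0.649 in Smoc2 cells and 0.683 in Fmod cells. The thinned endothelial ratio rested on few cells, as 3.57% of 56 day 5 and 14.8% of 88 day 0 cells kept an Amotl2 UMI. In cells chosen by the class gene alone the ratio was 0.892 for Prg4, 0.756 for Pi16 and 0.982 for Smoc2, so the size of the difference depended on how these classes were drawn. Most of the cells so chosen lay outside the class of that gene. The Prg4 class, highest for Ccn2, was thus among the lowest for Amotl2 on both days.

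Yap1 (ENSMUSG00000053110, chr9:7931999-8004596, minus strand), the coactivator itself, was at a low level in each class. Over classes with at least 50 cells it ranged between 23.5 CPM in Pi16 cells and 46.4 in Ibsp cells at day 5, and between 21.7 CPM in endothelial cells and 35.5 in Ibsp cells at day 0. The day 5 intervals of the Ibsp class (40.6 to 52.7) and the Pi16 class (20.0 to 27.4) did not overlap. The ratio was 1.31 (1.07 to 1.61) in Ibsp cells and 1.62 (1.005 to 2.73) in Smoc2 cells, which rested on 102 UMIs at day 5 and 21 at day 0. The Smoc2 value was 1.01 in cells chosen by Smoc2 UMIs alone and 2.54 in cells thinned to 2000 UMIs. In Prg4, Pi16, Fmod and the remaining fibroblasts the interval of the ratio reached across 1.

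Wwtr1 (ENSMUSG00000027803, chr3:57455649-57575910, minus strand), which encodes TAZ, was found in more cells than Yap1 and differed more between classes. Of all cells 51.5% at day 5 and 59.5% at day 0 had a Wwtr1 UMI, against 26.3% and 24.4% for Yap1. Endothelial cells had 232 CPM (199 to 268) at day 5 and 376 (332 to 425) at day 0. Smoc2 cells had 147 and 143, Fmod cells 138 and 217, Ibsp cells 90.2 and 116, Pi16 cells 65.6 and 71.5 and Prg4 cells 48.6 and 57.1. Its ratio was 0.617 (0.507 to 0.748) in endothelial cells and 0.637 (0.592 to 0.685) in Fmod cells, where both clusters were lower at day 5, with 0.688 in cluster 6 and 0.592 in cluster 11. In Ibsp cells it was 0.780 (0.687 to 0.886), and in Smoc2 cells 1.02 (0.831 to 1.27). After thinning, 42.9% (29.7 to 56.8) of endothelial cells at day 5 and 45.5% (34.8 to 56.4) at day 0 had a Wwtr1 UMI, with overlapping intervals. The part of the leukocyte markers in this class at day 5 was not tested. Ccn2, Yap1 and Wwtr1 each overlap a predicted gene on the opposite strand, and whether counting used strand is not given in the sources used here.

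**Figure D3:**
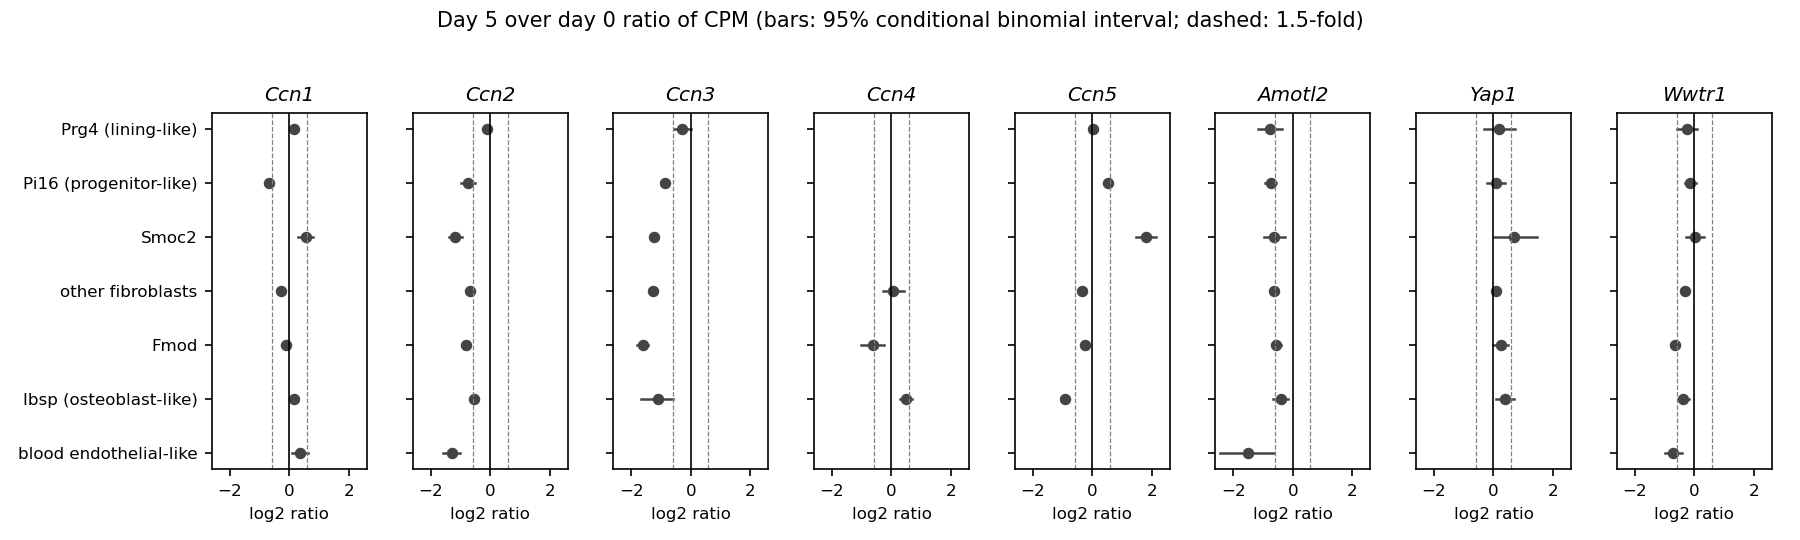
Ratio of day 5 over day 0 CPM on a log2 axis for 8 genes in the 7 classes compared, with 95% conditional binomial intervals. Dashed lines mark 1.5-fold, and points are missing where a gene had fewer than 50 UMIs. Ccn3 lies left of 0 in each class shown, and Ccn5 lies on either side, from 0.528 in Ibsp cells to 3.48 in Smoc2 cells.

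Counted over genes, the classes differed in how many of the measured members passed 1.5-fold, a size and not a test. Over all cells 1 of 9 was lower, Ccn3, against 7.21% of all genes, and 0 were higher, against 7.58%. In Pi16 cells 4 of 7 members with enough counts were lower at day 5 (Ccn1, Ccn2, Ccn3 and Amotl2) and 0 were higher, against 5.99% of all genes lower and 6.15% higher. The 4 became 2 after thinning to 2000 UMIs and 1 in cells chosen by Pi16 UMIs alone, where Ccn1 and Ccn2 turned to ratios of 1.14 and 1.13. In Smoc2 cells 3 of 7 were lower (Ccn2, Ccn3 and Amotl2) and 2 higher (Ccn5 and Yap1), against 9.66% and 8.37%, and 0 were higher in cells chosen by Smoc2 UMIs alone. In Fmod cells 4 of 8 were lower (Ccn2, Ccn3, Ccn4 and Wwtr1), against 8.1%, and 0 were higher, against 8.4%. The 4 became 2 after thinning and 2 in cluster 6 alone. In Ibsp cells 2 of 8 were lower (Ccn3 and Ccn5), against 3.57%, and 0 higher, against 5.53%. Fibroblasts outside the Prg4, Pi16, Smoc2 and Saa3 classes had 3 of 8 lower (Ccn2, Ccn3 and Amotl2), against 5.37%, and 0 higher, against 7.77%. The Prg4 class had 1 of 7 lower, Amotl2, against 5.21%, and 0 higher, against 5.27%, and 2 were lower after thinning or in cells chosen by Prg4 UMIs alone. In endothelial cells 3 of 4 were lower (Ccn2, Amotl2 and Wwtr1) and 0 higher, where with few cells 20.3% of all genes were lower and 18.2% higher, and after thinning 1 member was lower and 1 higher. Ankrd1 had too few counts in each class and Ccn4 in the Prg4, Pi16, Smoc2 and endothelial classes. The Fmod class held 881 CPM of summed haemoglobin and other erythroid markers at day 5 and 8.49 at day 0, and 87.4 and 235 CPM of summed chondrocyte markers, and their part was not tested.

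The same direction could be followed in finer groups. Of the 14 fibroblast clusters, 12 had at least 50 cells in each library, and 7 of the 9 genes were measured in all 12. Ccn2, Ccn3 and Amotl2 were lower at day 5 in 12 of 12 clusters, whereas 9.52% of the 5893 genes measured in all of them were. The interval of the ratio lay below 1 in 12 clusters for Ccn3 and in 11 each for Ccn2 and Amotl2. No member was higher in all 12, against 5.19% of genes. Clusters of a library share its mice and its handling and are not independent. The Ccn3 ratio ran from 0.299 in the Penk cluster to 0.817 in the Prg4 cluster, and that of Ccn2 from 0.358 in the Hpse2 cluster to 0.980 in the Atf3 cluster, whose leading genes include Il6 and Has1. Amotl2 ran from 0.457 in the Hpse2 cluster to 0.929 in the Phex cluster. Ccn1 was lower in 7 clusters and higher in 5, with 0.585 (0.530 to 0.646) in the Chchd10 cluster as its lowest ratio. Ccn5 was lower in 6 and higher in 6. Yap1 was higher in 10 of 12 and Wwtr1 lower in 10 of 12. The interval of the ratio lay above 1 in 1 cluster for Yap1 and below 1 in 6 for Wwtr1. Most Yap1 differences were thus within counting error. With the clusters outside the fibroblasts included, Ccn3 was lower in 16 of 16 clusters and Amotl2 in 17 of 17. Ccn2 was lower in 15 of 17 and higher in 2. Its highest ratio was 1.68, in the unnamed cluster 13, with 140 CPM at day 5 and 83.4 at day 0. That cluster was not counted as fibroblasts, and the 12 of 12 for Ccn2 depends on this choice.

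**Figure D4:**
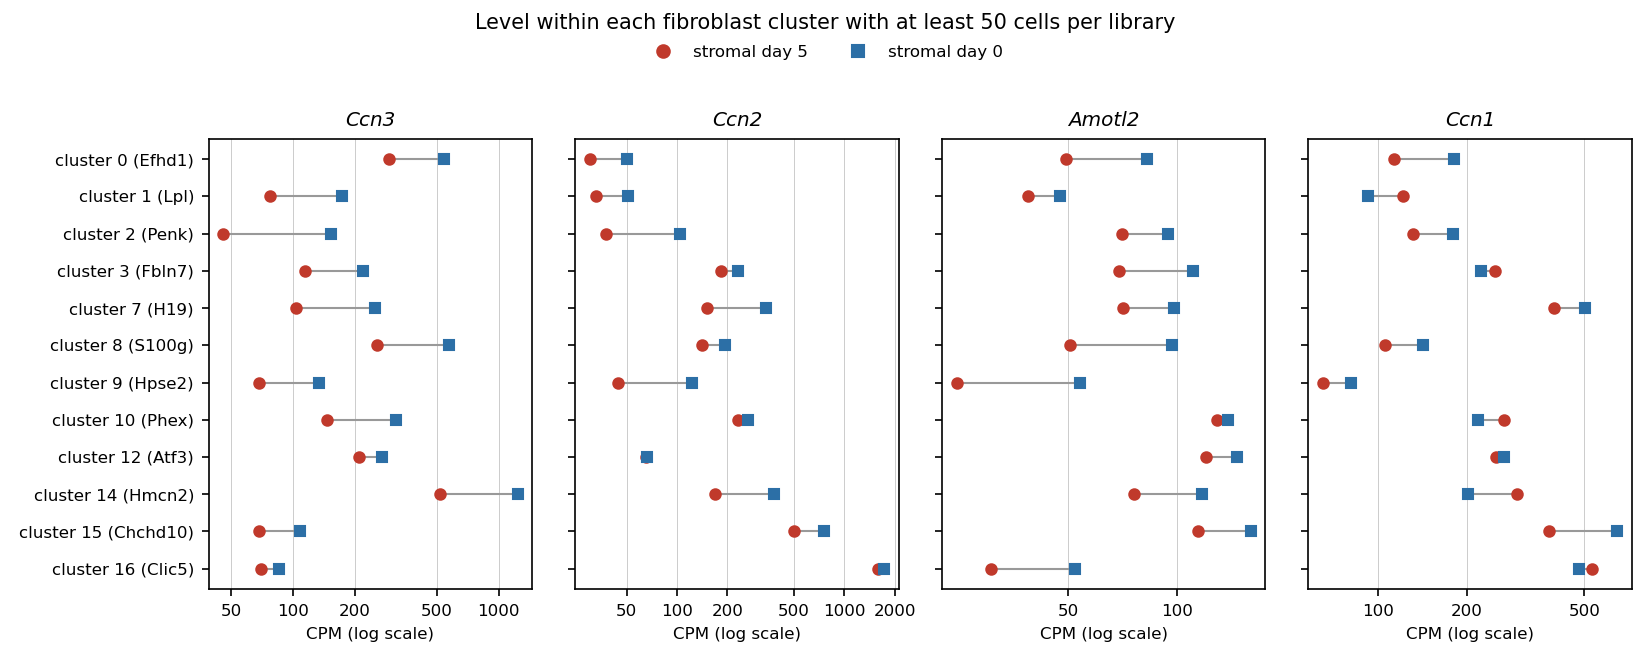
Level in CPM on a log axis within each of the 12 fibroblast clusters compared, named by number and leading gene (0 is the Pi16, 14 the Smoc2 and 16 the Prg4 class), for stromal day 5 (red circles) and stromal day 0 (blue squares). The red circle lies left of the blue square in 12 of 12 clusters for Ccn3, Ccn2 and Amotl2, and in 7 of 12 for Ccn1.

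Summed over all fibroblasts, the picture changed for genes that were high in the Saa3 class. Ccn1 had 256 CPM at day 5 and 228 at day 0, a ratio of 1.13 (1.10 to 1.15), which became 0.860 without the Saa3 cluster and 0.904 with the clusters weighted equally. Ccn5 had 375 and 323 CPM, a ratio of 1.16 (1.14 to 1.18), which became 0.892 without the Saa3 cluster and 0.970 with equal weights. Amotl2 was lower in each version, at 0.794 (0.765 to 0.824) overall and 0.655 without the Saa3 cluster. Ccn3 was at 0.388 (0.378 to 0.398) overall and 0.486 with equal weights. Of the 8 members measured, 1 passed 1.5-fold lower, against 6.31% of genes, and 0 higher, against 7.07%. The Saa3 class, high in Ccn1 and Ccn5, had 1112 of the fibroblasts at day 5 and 16 at day 0.

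The wider pathway was described by 6 lists of pathway genes, counted first in all fibroblasts, where 7.07% of all genes were at least 1.5-fold higher and 6.31% lower. Of 21 measured genes of a YAP and TAZ target signature, 0 were at least 1.5-fold higher at day 5 and 2 were lower, with a median log2 ratio of 0.07 beside -0.0025 for all genes. Ccn1, Ccn2 and Amotl2 are themselves on this list. Those lower were Tgfb2, a TGF-beta ligand, with 117 CPM at day 5 and 215 at day 0, and Axl, a receptor kinase for Gas6, with 209.7 and 346. Of 21 Hippo kinases, adaptors and TEAD partners, none passed 1.5-fold either way, and the median was 0.04. The signature was then counted within classes. In Pi16 cells 5 of 19 measured signature genes were at least 1.5-fold lower and 0 higher, with a median of -0.30, against 5.99% and 6.15% of all genes. Those lower were the members Ccn1, Ccn2 and Amotl2, Tgfb2 with 153 CPM at day 5 and 303 at day 0, and Nuak2, a kinase gene named after its values were seen, with 3.40 and 6.68. Nuak2 rested on 23 UMIs at day 5 and 69 at day 0. The members repeat values already counted above, and Ccn1 and Ccn2 were not lower in cells chosen by Pi16 UMIs alone. In Smoc2 cells 6 of 15 were lower and 0 higher, with a median of -0.30, against 9.66% and 8.37% of all genes, and Ccn2, Amotl2, Tgfb2 and Axl were among the 6. Fmod cells had 3 lower and 1 higher of 21, against 8.1% and 8.4% of all genes. Prg4 cells had 1 and 1 of 16, against 5.21% and 5.27%. Ibsp cells had 1 and 0 of 17, against 3.57% and 5.53%, and endothelial cells 3 and 3 of 12, against 20.3% and 18.2%. Fibroblasts outside the named fibroblast classes had 3 lower and 1 higher of 21, with a median of 0.09, against 5.37% and 7.77%.

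Serum response factor and MRTF respond to the state of the actin cytoskeleton. Among 20 of their targets and cofactors, 1 was higher and 3 lower in fibroblasts, with a median of -0.19. Of all genes there, 7.07% were higher and 6.31% lower. Myl9, a myosin light chain, had 11.7 CPM at day 5 and 6.53 at day 0. Those lower were Filip1l with 27.5 and 79.0 CPM, the LIM protein gene Fhl1 with 108 and 265, and Tagln with 1.55 and 3.12. In the Fmod class 8 of 19 measured genes of this list were lower and 1 higher, with a median of -0.57, against 8.1% of all genes there lower and 8.4% higher, with a median of -0.01. Most Fmod cells belonged to cluster 6 at day 5 and to cluster 11 at day 0, and the part of this make-up in the list's values was not tested. Fhl1 had 144 CPM in Fmod cells at day 5 and 385 at day 0, and Filip1l 10.3 and 34.7. In Pi16 cells 4 of 17 were lower and 0 higher, with a median of -0.41, against 5.99% and 6.15% of all genes. Smoc2 cells had 5 of 14 lower and 0 higher, with a median of -0.49, against 9.66% and 8.37%. Ibsp cells had 1 of 19 lower and 0 higher, against 3.57% and 5.53%, and Prg4 cells 2 of 15 lower and 2 higher, against 5.21% and 5.27%. Fibroblasts outside the named fibroblast classes had 4 of 20 lower and 1 higher, with a median of -0.29, against 5.37% and 7.77%. In endothelial cells 9 of 13 were higher and 2 lower, with a median of 0.81, against 18.2% of all genes higher and 20.3% lower in this class of few cells, with leukocyte markers at day 5.

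Of 12 measured receptors and partners of CCN proteins, 1 was higher and 2 lower in fibroblasts, with a median of -0.07. For this and the following lists, the shares over all genes in fibroblasts were 7.07% higher and 6.31% lower. Notch1, a receptor bound by Ccn3, had 3.67 CPM at day 5 and 2.11 at day 0. The integrin genes Itga6, with 14.3 and 29.6 CPM, and Itgb3, with 7.00 and 12.7, were lower. Of 15 TGF-beta ligands, receptors and targets, Tgfb2 alone passed 1.5-fold, and the median was -0.14. Of 23 immediate early and digestion stress genes, Ier3 was higher, with 577 CPM at day 5 and 338 at day 0. Hspa1b was lower, with 120.3 and 192, and the median was 0.20. Within classes, Smoc2 cells had 7 higher and 1 lower of 23, against 8.37% and 9.66% of all genes. Fmod cells had 7 and 5, against 8.4% and 8.1%. Pi16 cells had 2 and 3, against 6.15% and 5.99%, and Prg4 cells 3 and 1, against 5.27% and 5.21%. Ibsp cells had 0 and 1, against 5.53% and 3.57%, and endothelial cells 0 and 8 of 22, against 18.2% and 20.3%. Fibroblasts outside the named fibroblast classes had 0 and 0, against 7.77% and 5.37%.

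**Figure D5:**
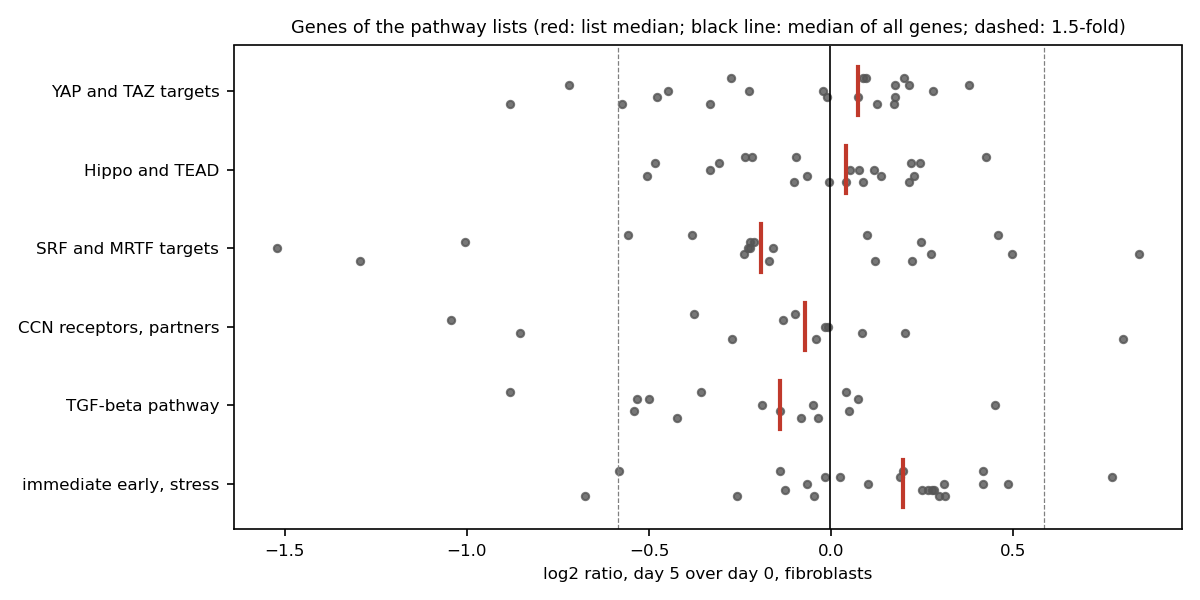
Log2 ratio of day 5 over day 0 in fibroblasts for each measured gene of 6 lists, with 1 point per gene. Red bars are list medians, the black line is the median of all genes and dashed lines are 1.5-fold. The YAP and TAZ target list has its median at 0.07 and the serum response factor list at -0.19.

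Likeness of expression was described over 15 profiles of class and day, by Pearson's correlation of log2(CPM + 1) among 8754 genes. The profiles come from the same 2 libraries and share cells' handling, so the values are descriptions. The 3 genes closest to Ccn1 were Ndufaf8 (0.91), Tmed10 (0.87) and Znhit1 (0.84). Those closest to Ccn2 were Raph1 (0.94), Atp6v1g1 (0.92) and Tmed10 (0.89). For Ccn3 they were Arhgap21 (0.96), Snx18 (0.94) and Arap1 (0.91). Ccn4 was closest to Cmtm4 (0.96), Ankmy1 (0.95) and the bone matrix gene Sparc (0.94), and Ccn5 to Mrc2 (0.94), the CCN receptor Lrp1 (0.94) and the syndecan Sdc4 (0.93). Between the members, Ccn1 and Ccn2 had a correlation of 0.80, Ccn1 and Ccn3 one of -0.68, and Ccn2 and Amotl2 one of -0.11.

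The sorted day 9 leukocytes give the level of these genes in cells sorted for CD45. In 5945 cells Ccn1 had 7.07 CPM (6.42 to 7.77), Ccn2 3.47, Ccn4 1.12, Amotl2 1.16, Wwtr1 1.87, Yap1 0.619, Ccn5 0.277 and Ccn3 0.0489, and Ankrd1 was at 0 UMIs. The library differs from the stromal ones in sort and day, so no ratio was taken.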

How the data were processed

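The authors deposited UMI counts per gene and barcode for 3 libraries, as whole numbers, made with Cell Ranger 6.0.1 per the submitters' processing notes with the mm10 reference of 10x as the alignment target per the labels' protocols. The notes also name Seurat 4.3.0, with no role given. Members and gene lists were chosen with earlier results of these data known. A cell needed 500 or more genes, 1000 or more UMIs and a mitochondrial share of UMIs of 10% or less, which left 11172 of 11900 day 5 and 7368 of 7740 day 0 barcodes. Scrublet called 0 and 1 doublets, so the barcodes of highest score were removed at 0.8% per 1000 barcodes, 1119 at day 5 and 473 at day 0. Doublets of similar cells can remain. The myeloid library had the same cell filter and no doublet step.

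The stromal libraries were clustered together in scanpy 1.11.5, with counts scaled to 10000 per cell, 2000 variable genes without the 9 members, 30 principal components, 15 neighbours and Leiden resolution 1.0, which gave 23 clusters. A class name needed at least 3 detected markers, checked against the 10 leading genes. Totals were 122224428 UMIs at day 5 and 77842586 at day 0, which set the counting error. CPM carry exact Poisson intervals, shares Clopper-Pearson intervals and ratios exact conditional binomial intervals, all at 95%. UMIs of a library are not independent animals. A gene counted as measured with at least 50 UMIs over both libraries. With a single library in each group, nothing was tested. The text names all 9 members and Ccn6, up to 3 genes past 1.5-fold in each direction from each list, and the 3 genes most like each CCN gene (among genes with at least 20 CPM in a profile). The ratio computation was tested on simulated counts.

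Alternatives were a looser and a stricter cell filter, no doublet removal, DESeq2 1.42.0 median-of-ratios and edgeR 4.0.16 TMM scaling, averaging CPM over cells, thinning to 2000 UMIs, cells without leukocyte UMIs, equal cluster weights, no Saa3 cluster, classes from at least 10 UMIs of the class gene per 10000, resolutions of 0.5 and 2.0 and a minimum of 20 UMIs. Added after seeing the data were fibroblasts with clusters 13, 17 and 19, Ibsp cells without Col2a1 or Acan UMIs and each Fmod cluster alone.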

Additional observations from a re-analysis of the deposited data

Results flagged for a closer look

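Ccn5 moved in opposite directions in a pair of classes. The ratio of day 5 over day 0 was 3.48 in Smoc2 cells and 0.528 in Ibsp cells. With 1 library per group the difference between these ratios was not tested. Cells chosen by Smoc2 UMIs alone had a ratio of 0.700, and those chosen by Ibsp UMIs alone had 0.603.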

How the results depend on the processing

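No paired analysis was possible because each group has 1 library. Of 613 recomputed ratios of a member in a class, 6 crossed from one called direction to the other, 27 changed side of 1, 19 moved by over 1.5 times, and 28 of 221 that had passed 1.5-fold no longer did. With classes taken by the rule gene alone, Pi16 cells had ratios of 1.14 for Ccn1 and 1.13 for Ccn2, Fmod cells 1.48 for Ccn4 and Smoc2 cells 0.700 for Ccn5. Fmod cluster 11 alone had 1.17 for Ccn2, and Fmod cluster 6 alone 1.37 for Ccn4. The cause was not tested.

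Counts of members at least 1.5-fold higher became 1 in Ibsp cells without Col2a1 or Acan cells, 1 in Prg4 cells and 1 in endothelial cells at a minimum of 20 UMIs, and 0 in Smoc2 cells taken by the rule gene. They became 1 over all cells with the mean of each cell's CPM or with no doublet removal, 1 in endothelial cells after thinning or with the mean of each cell's CPM, and 1 in fibroblasts at resolution 0.5, at resolution 2.0 or with clusters 13, 17 and 19. Counts of members at least 1.5-fold lower became 2 in each of the Fmod, Pi16 and Prg4 classes after thinning, 2 in Fmod cluster 6 alone, 1 in Pi16 and 2 in Prg4 cells taken by the rule gene, 2 over all cells under the stricter filter, 1 in endothelial cells after thinning or with the mean of each cell's CPM, and 2 in fibroblasts without the Saa3 cluster. At a minimum of 20 UMIs, Ankrd1 joined the lower members in Fmod cells. Its ratio there was 0.464 (0.220 to 0.931), from 13 UMIs at day 5 and 27 at day 0.

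In fibroblasts Ccn3 was lower at day 5 under every alternative run, with ratios of 0.368 to 0.486, and so were Ccn2 (0.672 to 0.803) and Amotl2 (0.655 to 0.831), while Ccn1 and Ccn5 changed side without the Saa3 cluster and with equal cluster weights. DESeq2 and TMM scaling moved ratios little, by factors of 0.919 to 1.02 over the classes. Depth limits Ankrd1, Ccn4 outside the Ibsp class and the 57 and 90 endothelial cells. Names of classes rest on RNA, and day, library and mice cannot be told apart.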
